A study of Mus musculus with 10 samples.

Results

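The 10 genes described here encode extracellular matrix proteins and were followed through mouse alveolar type II (AT2) cells that carried, or did not carry, a deletion of HOIL-1L. They are chains of collagen VI (Col6a1 and Col6a2), of collagen IV (Col4a1, Col4a2, Col4a3 and Col4a4) and of laminins (Lama3, Lama5 and Lamb3), and the core protein of collagen XVIII (Col18a1). The genes were taken by symbol, 10 of the 16154 genes in the deposited table, and all 10 passed the filter on low values (5 or more libraries with 1 or more normalized counts per M). They were picked with their differences between knockout and wild type in these same libraries already known, so those differences are a description. Where the fit over all genes called a member, this is stated beside the share of all genes it called, and it is no independent test of that member.

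Polyadenylated RNA was sequenced from AT2 cells sorted from lungs of C57BL/6 mice aged 8 to 10 weeks, in 5 libraries labelled HOIL-1L knockout (replicates 1 to 5) and 5 labelled wild type (replicates 2 to 6). HOIL-1L is encoded by Rbck1 and belongs to the complex that assembles linear ubiquitin chains, and the series concerns its role in the lung epithelium. The genotype label of the knockout samples is HOIL-1L -/-, while the series' design names a floxed HOIL-1L allele with Cre under SPC, the surfactant protein C promoter, which is active in AT2 cells. Which of these the mice carried is not settled by the labels, and the wild type mice are described without either. All animals share strain, age and sort, and no treatment separates the groups. Each title has its own mouse number, so libraries were taken as separate mice. The labels also carry a letter N that they do not explain.

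Basement membranes are thin sheets of matrix on which epithelial cells rest. Their main fabric is a network of collagen IV and a network of laminins, tied together by nidogens and heparan sulfate proteoglycans. In the alveolus a shared basement membrane lies between the epithelium and the capillary endothelium. Collagen IV trimers are built from α chains in fixed sets, of which α1α1α2 is common to nearly all basement membranes and α3α4α5 marks a few, among them those of the alveolus and the kidney glomerulus. Laminins are trimers of an α, a β and a γ chain. Lama3 and Lamb3 are chains of the epithelial laminin that anchors hemidesmosomes, and Lama5 pairs with Lamb1 or Lamb2 and Lamc1. Collagen VI forms beaded filaments next to basement membranes from α1, α2 and one other α chain, and collagen XVIII is a proteoglycan of the basement membrane whose C-terminal fragment is endostatin.

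Features of the libraries that bear on every value come first. The targeted gene Rbck1 stood at 59.3, 29.8, 36.4, 38.0 and 38.8 normalized counts per M in knockout libraries 1 to 5, against 29.7, 56.7, 57.8, 56.1 and 56.6 in wild type libraries 2 to 6. The library labelled knockout 1 therefore lay with most wild type libraries and the library labelled wild type 2 with most knockout libraries, so results are given for all 10 libraries as labelled and for the 8 libraries left when both are set aside. Gene-level values of Rbck1 count all exons, deleted or not. The mouse numbers fall into a first run (knockout 1, 2 and 3 and wild type 2 and 3) and a second run (knockout 4 and 5 and wild type 4, 5 and 6), which the labels do not call batches. Knockout 2, knockout 3 and wild type 2 were female by their RNA and all other libraries male, so the second run compares males only. Column totals were 6.94 to 7.43 M. The read depth behind the normalized values is not stated in the table, so no counting interval is given.

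The libraries had the expression of AT2 cells. Summed levels of 10 AT2 markers, surfactant genes among them, were 183824 to 211483 per M in knockout libraries and 184444 to 220531 in wild type libraries. Cells outside the epithelium that also make basement membrane were scarce by their markers. The 8 fibroblast markers in the table summed to 1.47 to 9.49 per M in knockout and 6.67 to 11.9 in wild type libraries, with Pdgfra, Lum and Mfap5 at or under 1 per M in every library. The 6 endothelial markers summed to 17.3 to 24.1 per M in knockout and 20.97 to 24.4 in wild type libraries, with Cdh5 at or under 1 everywhere, and 8 smooth muscle and pericyte markers to 6.01 to 9.07 in knockout and 6.82 to 9.54 in wild type libraries. The 4 mesothelial markers summed to 4.11 to 21.4 per M in knockout and 2.34 to 9.89 in wild type libraries. Of these, the only one tested was Msln, mesothelin, which was higher in knockout, as most of the 10 genes were. Its log2 difference was 1.23 ± 0.42 in the 10 libraries, 1.53 ± 0.30 in the 8 (limma adjusted p = 0.0327) and 1.06 ± 0.34 in the second run. The part of mesothelial RNA in the members' values was not tested. The 12 markers of alveolar type I (AT1) cells summed to 2705 to 3168 in knockout and 2836 to 3403 in wild type libraries. The 3 club cell markers summed higher still, to 4800 to 8857 in knockout and 4549 to 9039 in wild type libraries. The part of club cell RNA in the members' values was not tested. In bulk samples, fewer cells of a type and less RNA per cell cannot be told apart.

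Most of the 10 genes were abundant transcripts. Levels of different genes were compared per kb of the principal transcript, as means over the 10 libraries. Col6a1 (94.1 ± 16.8 normalized counts per M per kb, SD, n = 10), Lamb3 (87.7 ± 10.1), Col4a1 (81.1 ± 10.1) and Col4a2 (77.2 ± 9.20) formed a high tier whose neighbours did not differ beyond their spread. Col6a2 (22.8 ± 6.10) and Lama5 (18.1 ± 2.60) lay in the middle and within each other's spread. By the union of exons Col6a2 was at 10.8 ± 2.89 and Lama5 again at 18.1 ± 2.60, so their order and overlap depend on the length used. Col18a1 (7.08 ± 1.94), Col4a4 (5.21 ± 0.858), Lama3 (5.05 ± 1.19) and Col4a3 (4.26 ± 0.769) lay lowest, with overlapping spreads. Across libraries Col6a2 varied most, with its highest library 2.43 times its lowest, and Lamb3 least, at 1.32 times.

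**Figure D1:**
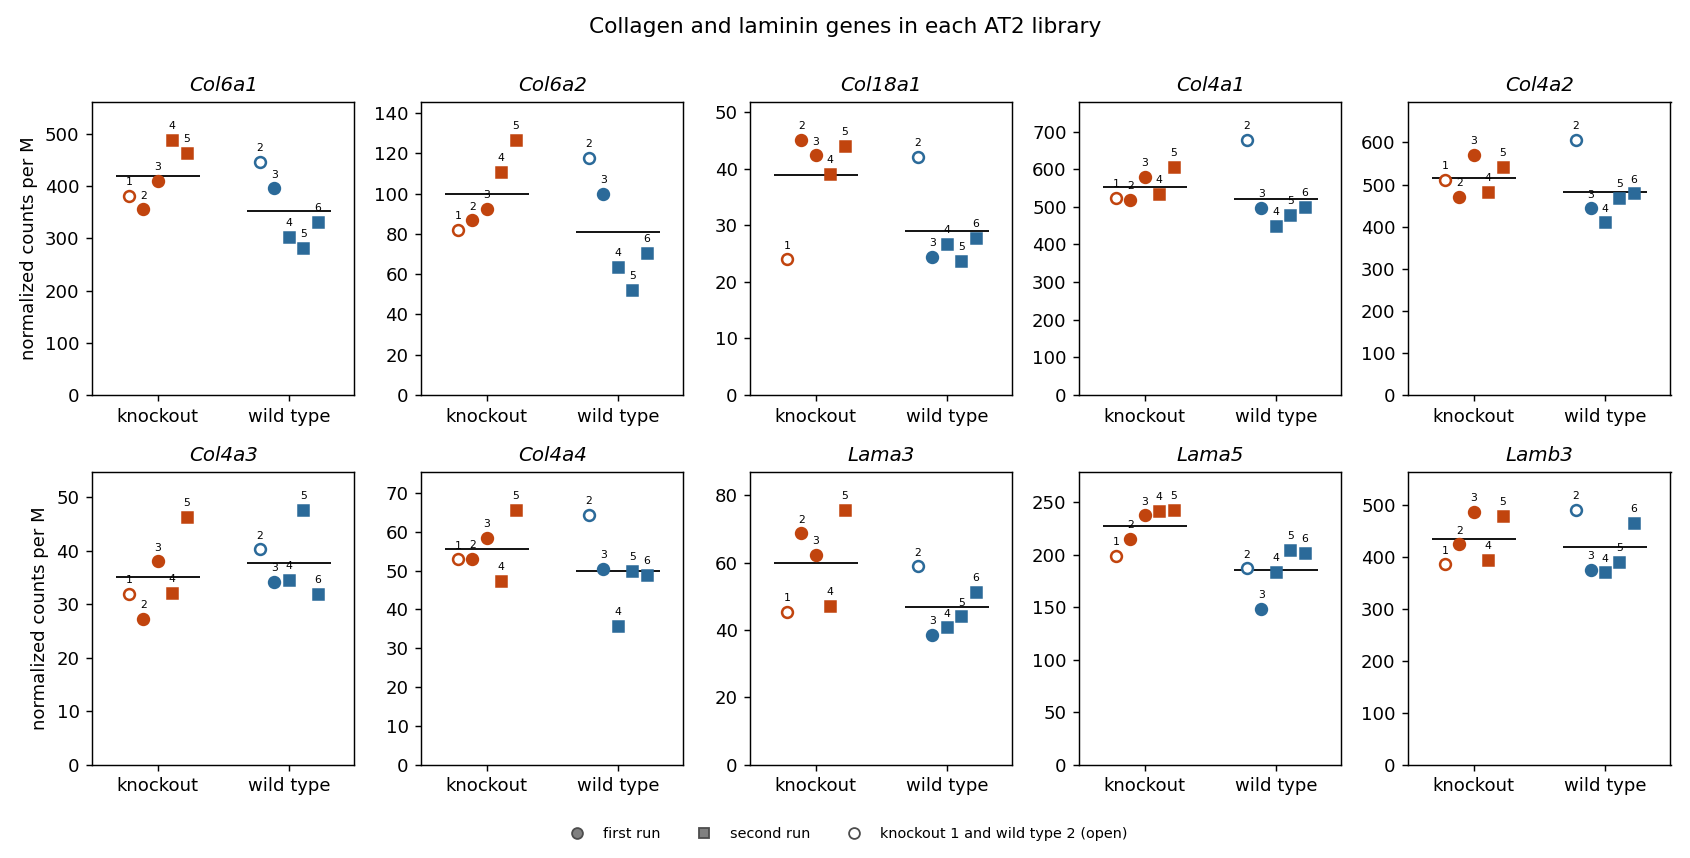
Level of each of the 10 genes (vertical axes, normalized counts per M, starting at 0) in every knockout library (left in each panel) and wild type library (right), with the replicate number above each point and the group mean of all 5 as a line. Circles are the first run, squares the second, open symbols the libraries labelled knockout 1 and wild type 2. Col6a1 and Col6a2 have knockout above wild type libraries in the second run but not in the first, and Col18a1 has 1 library of each group at the level of the other group.

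Collagen IV α1 and α2, the ubiquitous chains, were close to equal and moved together from library to library. Their genes lie head to head on chromosome 8 (mm10, Col4a1 at 11198423 to 11312826 on the minus strand, Col4a2 at 11312805 to 11449287 on the plus strand, both protein coding). Their annotated start sites are 21 bases apart, so the 5′ ends of the gene models overlap. The promoter windows of RefSeq (GRCm38.p6, 250 bases before to 50 after the start site) are shown because 1 stretch of 78 bases, in capitals, belongs to both windows, as each other's reverse complement. Each window is printed 5′ to 3′ on the strand of its gene.
Col4a1, chr8:11312777-11313076, minus strand: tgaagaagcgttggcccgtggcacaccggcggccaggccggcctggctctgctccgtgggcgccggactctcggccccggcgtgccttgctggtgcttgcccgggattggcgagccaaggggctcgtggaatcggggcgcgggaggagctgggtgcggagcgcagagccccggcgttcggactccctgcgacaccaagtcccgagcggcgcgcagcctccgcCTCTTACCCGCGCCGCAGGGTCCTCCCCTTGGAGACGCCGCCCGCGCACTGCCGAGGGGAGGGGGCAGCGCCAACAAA
Col4a2, chr8:11312555-11312854, plus strand: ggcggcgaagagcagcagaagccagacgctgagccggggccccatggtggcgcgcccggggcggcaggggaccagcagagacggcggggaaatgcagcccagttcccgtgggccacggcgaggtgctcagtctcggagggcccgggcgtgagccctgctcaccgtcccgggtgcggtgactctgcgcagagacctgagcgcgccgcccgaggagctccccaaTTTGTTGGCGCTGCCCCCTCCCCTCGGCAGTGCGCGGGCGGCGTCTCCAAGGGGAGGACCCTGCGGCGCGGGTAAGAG

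Col4a1 stood at 523, 518, 579, 534 and 605 per M in knockout libraries 1 to 5, against 677, 497, 450.3, 478 and 501 in wild type libraries 2 to 6. The library labelled wild type 2 was the highest of all 10, and the other wild type libraries lay below every knockout library. The means were 552 ± 38.3 per M in knockout and 521 ± 89.5 in wild type (SD, n = 5 each), a log2 difference of 0.10 ± 0.09 (SE). With both doubted libraries set aside, knockout averaged 559 ± 40.1 and wild type 482 ± 23.1 (SD, n = 4 each), a log2 difference of 0.21 ± 0.07. Col4a2 stood at 510.5, 470.0, 569.6, 483 and 542 per M in knockout libraries 1 to 5, against 605, 443, 410.2, 468 and 479 in wild type libraries 2 to 6. It too was highest in the library labelled wild type 2, and apart from that library only knockout 2, at 470.0 per M, lay within the wild type range. Its log2 difference was 0.11 ± 0.09 over all 10 libraries and 0.20 ± 0.08 over the 8. Per kb, the level of Col4a1 over that of Col4a2 was 1.05 ± 0.0471 in knockout and 1.05 ± 0.0442 in wild type libraries (SD, n = 5 each), with every library between 0.992 and 1.09. By the union of exons it was 0.952 in knockout and 0.958 in wild type libraries, so which chain is the higher depends on the length used.

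Collagen IV α3 and α4, the chains of the restricted network, were an order of magnitude rarer and less regular. Their genes also lie head to head, on chromosome 1 (mm10, Col4a4 at 82448423 to 82586849 on the minus strand and Col4a3 at 82586921 to 82722059 on the plus strand). Col4a3 stood at 31.9, 27.3, 38.0, 32.1 and 46.2 per M in knockout libraries 1 to 5, against 40.2, 34.2, 34.5, 47.6 and 32.0 in wild type libraries 2 to 6. The groups overlapped almost fully, with knockout 5 and wild type 5 the 2 highest. Col4a3 was the only 1 of the 10 genes with a lower mean in knockout (35.1 ± 7.30) than in wild type (37.7 ± 6.31), a log2 difference of -0.11 ± 0.13 in all 10 libraries and -0.05 ± 0.15 in the 8. Col4a4 stood at 52.9, 52.9, 58.4, 47.4 and 65.6 per M in knockout libraries 1 to 5, against 64.3, 50.5, 35.7, 49.8 and 48.9 in wild type libraries 2 to 6. Its groups overlapped, with the library labelled wild type 2 again the highest of its group. The log2 difference was 0.17 ± 0.12 in all 10 libraries and 0.28 ± 0.12 in the 8. Per kb, Col4a4 over Col4a3 was 1.36 ± 0.175 in knockout and 1.13 ± 0.232 in wild type libraries, and Col4a1 was 15.3 ± 1.14 times Col4a4 in knockout and 16.1 ± 1.83 times in wild type (SD, n = 5 each). Col4a5, the X-linked partner of the same trimer and no member of the 10, stood at 4.45 ± 0.379 per M per kb in knockout and 4.20 ± 0.685 in wild type libraries, near the level of the other 2 chains. AT1 cells, which also line the alveolus, are known to express Col4a3 and Col4a4, and 10 of 12 AT1 markers were below 0 in the 10-library difference (median log2 difference -0.19) and in the 8-library difference (-0.26). Their part in the collagen IV values was not tested.

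Lama3 and Lamb3, the α and β chains of the hemidesmosomal laminin, were at very unequal levels. Lama3 lies on chromosome 18 (mm10, 12333819 to 12583013, plus strand) and Lamb3 on chromosome 1 (mm10, 193207699 to 193343878, plus strand). Lama3 stood at 45.3, 68.7, 62.2, 47.2 and 75.6 per M in knockout libraries 1 to 5, against 58.9, 38.5, 40.8, 44.0 and 51.3 in wild type libraries 2 to 6. Knockout 2, 3 and 5 were above every wild type library, and knockout 1 and 4 lay among them. The log2 difference was 0.34 ± 0.14 in all 10 libraries and 0.52 ± 0.13 in the 8. Lamb3 stood at 386, 425, 487, 395 and 479.8 per M in knockout libraries 1 to 5, against 491, 375, 371, 391 and 466 in wild type libraries 2 to 6. Its groups overlapped across their whole range, and the log2 difference was 0.06 ± 0.09 in all 10 libraries and 0.16 ± 0.09 in the 8. Per kb, Lamb3 was 16.2 ± 2.42 times Lama3 in knockout and 19.6 ± 1.09 times in wild type libraries (SD, n = 5 each). By the union of exons the ratio was 12.1 in knockout and 14.7 in wild type libraries, so its size depends on the length used.

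Lama5, the laminin α chain found along most adult epithelia, had much the same difference between the groups in each run as labelled. Its gene occupies positions 180176373 to 180225859 of chromosome 2 (mm10, minus strand). It stood at 198.8, 215, 237, 242 and 242 per M in knockout libraries 1 to 5, against 186.8, 148, 183.8, 204.4 and 202 in wild type libraries 2 to 6. Knockout 1 was the only knockout library below a wild type library, and within each run every knockout library lay above every wild type library. The means were 227 ± 19.3 per M in knockout and 185 ± 22.5 in wild type libraries (SD, n = 5 each), a log2 difference of 0.30 ± 0.09 in all 10 libraries and 0.35 ± 0.09 in the 8. Its values in the runs were 0.38 ± 0.11 in the first and 0.30 ± 0.10 in the second. In the 8 libraries the second-run difference minus that of the first was -0.31, with wild type 3 the sole wild type library left in the first run. Its partner chains Lamb2 and Lamc1, which are no members, had log2 differences of 0.02 ± 0.06 and 0.17 ± 0.08 in the 10 libraries. Per kb, Lamb2 averaged 46.0 ± 1.28 per M in knockout and 45.5 ± 2.18 in wild type libraries, and Lamc1 17.1 ± 1.44 in knockout and 15.2 ± 1.31 in wild type (SD, n = 5 each). Neither passed the test (limma adjusted over all genes tested).

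Collagen VI α1 and α2 had the most contrasting values between the runs. Both genes lie on chromosome 10 on the minus strand (mm10, Col6a2 at 76595762 to 76623630 and Col6a1 at 76708792 to 76726168). Their RefSeq promoter windows are shown because they differ in a common promoter element, the GC box GGGCGG (searched on both strands, so that CCGCCC on the printed strand also counts, and given in capitals). The window of Col6a2 at the lower of its 2 annotated start sites holds 3 matches, that at the other site 1 and that of Col6a1 0.
Col6a1, chr10:76725995-76726294, minus strand: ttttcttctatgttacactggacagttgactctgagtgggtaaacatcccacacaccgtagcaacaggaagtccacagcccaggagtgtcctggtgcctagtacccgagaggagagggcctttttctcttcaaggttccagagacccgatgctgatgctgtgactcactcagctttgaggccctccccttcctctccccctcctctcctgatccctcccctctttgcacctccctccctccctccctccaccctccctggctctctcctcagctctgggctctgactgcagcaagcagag
Col6a2, chr10:76623355-76623654, minus strand: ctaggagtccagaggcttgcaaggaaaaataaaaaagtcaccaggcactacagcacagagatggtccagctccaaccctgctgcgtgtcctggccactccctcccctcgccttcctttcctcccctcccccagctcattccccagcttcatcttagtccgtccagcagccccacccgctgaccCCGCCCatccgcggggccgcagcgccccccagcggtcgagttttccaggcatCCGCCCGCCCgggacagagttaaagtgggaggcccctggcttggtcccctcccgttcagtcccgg
The GC box was found in 6 of the 11 windows of 8 members and in 35.7% of all 32851 mouse windows. Windows of Col4a3 and Lama3 were not counted. The only match in the window of Col4a1 lies in the bases shared with Col4a2, so it is counted in both windows. The windows of Col6a2 also overlap each other. The windows are therefore not independent, and whether the members differ from all windows was not tested. The letters CCAAT were found in 3 of the 11 windows and in 37.4% of all, and TATAA in 0 of the 11 and in 24.9% of all, both also searched on either strand.

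Col6a1 stood at 382, 356, 409.8, 488 and 464 per M in knockout libraries 1 to 5, against 447, 396, 302, 281 and 332 in wild type libraries 2 to 6. The 2 knockout libraries of the second run were the highest of all 10 and the 3 wild type libraries of that run the lowest, while the first-run libraries of both groups lay between. Its mean was 419.7 ± 55.2 per M in knockout and 352 ± 68.5 in wild type libraries (SD, n = 5 each), a log2 difference of 0.27 ± 0.12 in all 10 libraries and 0.39 ± 0.11 in the 8. Col6a2 stood at 81.9, 86.6, 92.6, 111 and 126 per M in knockout libraries 1 to 5, against 118, 99.996, 63.7, 52.1 and 70.4 in wild type libraries 2 to 6. In the first run every knockout library was below every wild type library, and in the second run above every one. Col6a2 averaged 99.6 ± 18.5 per M in knockout and 80.8 ± 27.2 in wild type libraries (SD, n = 5 each), a log2 difference of 0.35 ± 0.18 in all 10 libraries and 0.56 ± 0.16 in the 8. Within the runs, the log2 difference of Col6a1 was -0.14 ± 0.09 in the first and 0.64 ± 0.10 in the second. That of Col6a2 was -0.32 ± 0.10 in the first and 0.94 ± 0.13 in the second. Beside these values, 10 of 12 AT1 markers were below 0 in the second run, with a median log2 difference of -0.42 and 0 of 12 called by limma, where 0.317% of all genes were. In the first run 6 of 12 were above 0 (median 0.02). All 3 club cell markers were above 0 in the first run (median 0.65) and below 0 in the second (-0.57). So were the 5 ciliated cell markers (medians 0.13 and -0.29). The directions of the club and ciliated cell markers were opposite to those of the collagen VI genes in both runs. Of the AT1 markers, 10 of 12 were opposite to them in the second run and 6 of 12 in the first. The part of these cell types in the collagen VI values was not tested.

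The remaining chain of classical collagen VI was nearly missing from these cells. Col6a3, no member of the 10, was listed at 0 to 0.719 per M over the 10 libraries and did not reach the filter, so it was not tested. Per kb, Col6a1 was 4.10 ± 0.369 times Col6a2 in knockout and 4.36 ± 0.631 times in wild type libraries (SD, n = 5 each). By the union of exons the ratio is 8.09 in knockout and 8.60 in wild type libraries, since that length for Col6a2 holds 8326 bases against 3949 in its principal transcript, so its size depends on the length used. The receptor genes Antxr1 and Antxr2, whose proteins bind collagen VI, had log2 differences of 0.06 ± 0.08 and -0.15 ± 0.09, and neither passed the test.

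Col18a1, the collagen XVIII gene, split the libraries the way Rbck1 did, high where Rbck1 was low. Its gene is on the same stretch of chromosome 10 as the collagen VI genes (mm10, 77052178 to 77166548, minus strand). Col18a1 stood at 24.0, 45.1, 42.4, 39.0 and 44.1 per M in knockout libraries 1 to 5, against 42.1, 24.5, 26.8, 23.7 and 27.8 in wild type libraries 2 to 6. The libraries labelled knockout 1 and wild type 2 each lay at the level of the other group, and the remaining 8 did not overlap. As labelled, the means were 38.9 ± 8.65 per M in knockout and 29.0 ± 7.55 in wild type libraries (SD, n = 5 each), a log2 difference of 0.42 ± 0.17. Over the 8 libraries knockout averaged 42.6 ± 2.64 and wild type 25.7 ± 1.92 (SD, n = 4 each), a log2 difference of 0.72 ± 0.09, the largest of the 10 genes. In the second run, which holds neither of those libraries, it was 0.66 ± 0.13, and in the first run as labelled 0.15 ± 0.26. The end of the Col18a1 gene model overlaps Slc19a1, a folate carrier gene on the same chromosome, which was far lower, at 2.85 to 4.88 per M. The strand setting of the counting is not given in the sources used here.

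**Figure D2:**
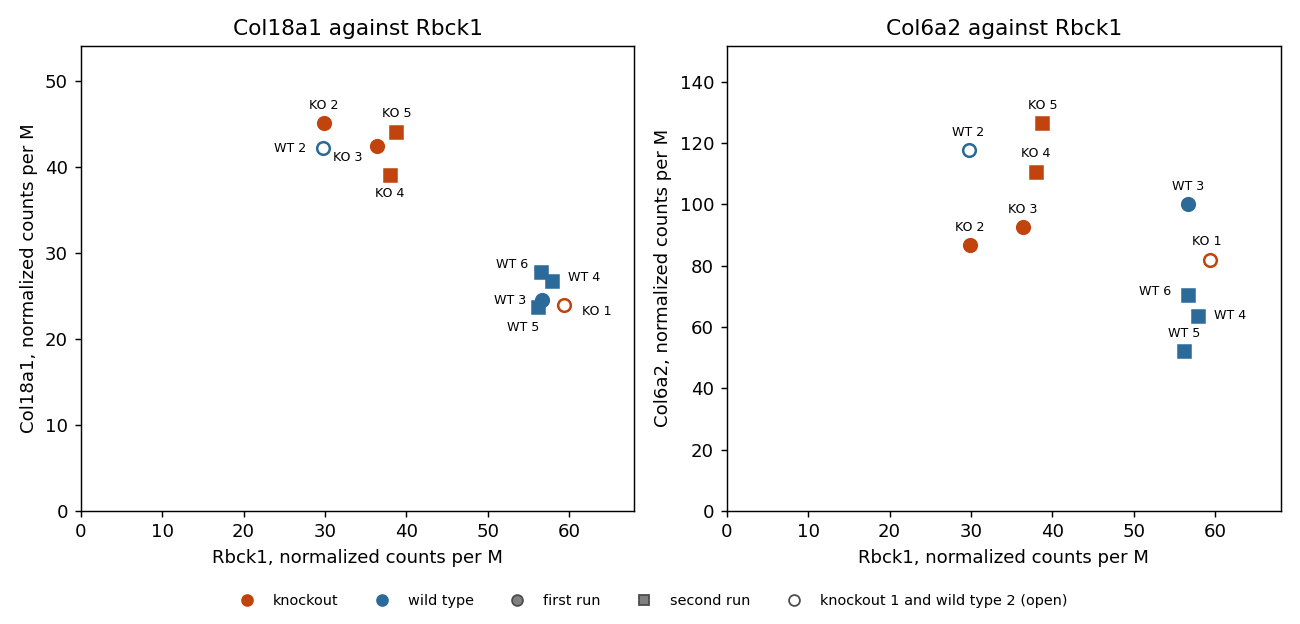
Level of Col18a1 (left panel) and Col6a2 (right panel) against that of Rbck1 in the 10 libraries, all in normalized counts per M, with orange for knockout (KO) and blue for wild type (WT), circles for the first run, squares for the second and open symbols for the libraries labelled knockout 1 and wild type 2. Knockout 2 to 5 and wild type 2 have Col18a1 at 39.0 to 45.1 and Rbck1 at 29.7 to 38.8, while knockout 1 and wild type 3 to 6 have Col18a1 at 23.7 to 27.8 and Rbck1 at 56.1 to 59.3. Col6a2 has no such gap, since wild type 3 lies at 99.996 and knockout 2 at 86.6.

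Set side by side, 9 of the 10 genes were higher in knockout libraries over all 10 libraries, with a median log2 difference of 0.22 against 0.01 for all 12946 genes tested. None of the 10 was called with limma at an adjusted p of 0.05, where 0% of all genes were called (1227 genes had an unadjusted p under 0.05). In no member did every knockout library lie above every wild type library, which was so for 0.958% of all genes, or below every one (0.633%). In the 8 libraries 9 of 10 were again higher, with a median of 0.32, and Col18a1 was called as higher, where 0.402% of all genes (52) were called, 0.286% as higher. Col18a1, Col4a1 and Lama5 did not overlap there, as 3.85% of all genes did not in that direction, and no member lay lower in every knockout library (2.87% of all genes). In the first run 4 of 10 were higher and none was called, as 0% of all genes were (1216 at an unadjusted p under 0.05). There Lama5 was higher in every knockout library than in any wild type library, as for 14% of all genes, and Col6a2 lower in every one, as for 13%. In the second run all 10 were higher, with a median of 0.31, and Col6a1, Col6a2 and Col18a1 were called as higher, where 0.317% of all genes (41) were called, 0.147% as higher. Col6a1, Col6a2, Col18a1, Col4a1, Col4a2 and Lama5 did not overlap there, as for 14.8% of all genes. Between the runs the knockout difference itself differed for 1 of the 10, Col6a2 (limma interaction term, 0.0154% of all genes called, all as higher). Since the genes were chosen with the knockout contrast in view, nothing is read from these counts. The called members of the second run rest on few libraries. Without wild type 5 only Col6a2 was called, and without knockout 4 or knockout 5 no member was.

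**Figure D3:**
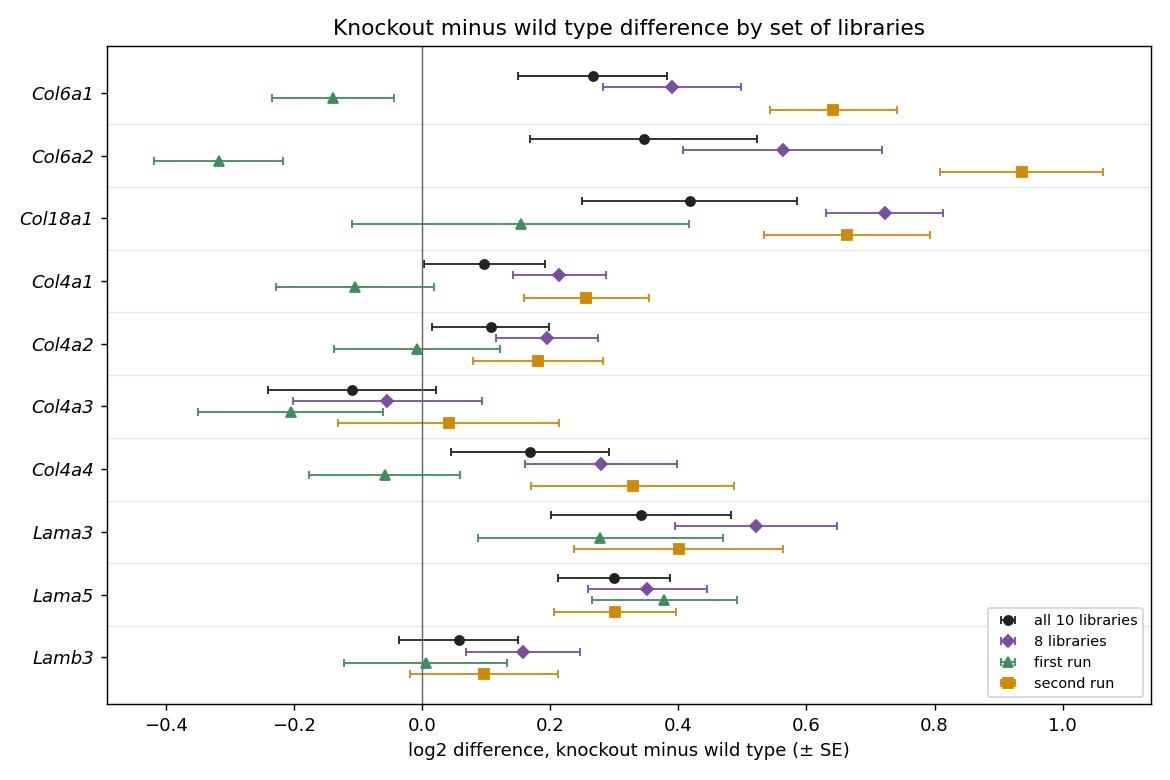
Log2 difference, knockout minus wild type (horizontal axis), of each gene in all 10 libraries, the 8 libraries, the first run and the second run, with its standard error as a bar. Col6a1 and Col6a2 lie on opposite sides of 0 in the first and second run, Lama5 lies between 0.30 and 0.38 in all 4 sets, and Col4a3 alone lies below 0 in all 10 libraries and in the 8.

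The runs themselves were compared with genotype as a covariate, a contrast that did not choose the genes. None of the 10 was called (limma), against 0.626% of all genes (81 of 12946, of which 50.6% were higher in the second run, or 66.0% of 97 after scaling to equal totals). An unadjusted p under 0.05 (limma) was found for 1 of the 10, and for 2041 of the 12946 genes. The 1 member was Lama5, with a log2 difference, second minus first run, of 0.20 ± 0.07 (limma adjusted p = 0.199). It was higher in every library of the second run than in its own group's first-run libraries except that wild type 4, at 183.8 per M, lay under wild type 2, at 186.8. The others ran from -0.19 ± 0.17 for Col6a2 to 0.14 ± 0.13 for Col4a3, with adjusted p between 0.531 and 0.974. The direction of small values here depends on scaling, since 2 of 10 genes were above 0 as deposited and 4 of 10 after scaling to equal totals.

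Chains that share a protein or a start region were correlated across the 10 libraries, in 4 pairs with p-values adjusted over the 4. Col6a1 and Col6a2 had a Pearson r of 0.96 (permutation test, two-sided, adjusted p = 4e-05 from the smallest p that the permutations can give) and a Spearman rho of 0.94 (permutation test, adjusted p = 0.00044). Without the 2 libraries farthest from the median of Col6a1, wild type 4 and 5, r was 0.91. Among 12945 other genes Col6a2 had the highest r with Col6a1. Since both genes had higher means in knockout libraries, r was also taken over the deviations from the labelled groups' means, where it was 0.95 (permutation test, adjusted p = 0.00024). The pair also shares its contrast between the runs. Over deviations from the means of the 4 groups of run and genotype, permuted within those groups, r was 0.71 (exact permutation test, two-sided, 144 permutations, adjusted p = 0.13), so the correlation did not pass once the runs were taken into account. The smallest p these permutations can give is 0.00694.

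Col4a1 and Col4a2 had an r of 0.94 (permutation test, two-sided, adjusted p = 0.00024) and a rho of 0.95 (permutation test, adjusted p = 0.00028). Without knockout 5 and wild type 2 r was 0.91, over deviations from the group means it was 0.93, and again the partner ranked 1 of 12945. Lama3 and Lamb3 had an r of 0.81 (permutation test, adjusted p = 0.0105) and a rho of 0.83 (permutation test, adjusted p = 0.00628), with r at 0.95 without knockout 2 and 5. Lamb3 ranked 106 among the genes by r with Lama3. Col4a3 and Col4a4, although they share a trimer and lie head to head, had an r of 0.38 (permutation test, adjusted p = 0.282) and a rho of 0.27 (permutation test, adjusted p = 0.449), with r at 0.31 without knockout 5 and wild type 5. Col4a4 ranked 1102. Within run and genotype, r was 0.96 for Col4a1 and Col4a2 (exact permutation test, adjusted p = 0.0278), 0.87 for Lama3 and Lamb3 (exact permutation test, adjusted p = 0.0833) and 0.67 for Col4a3 and Col4a4 (exact permutation test, adjusted p = 0.181), so that of the 4 pairs only the first of these passed.

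**Figure D4:**
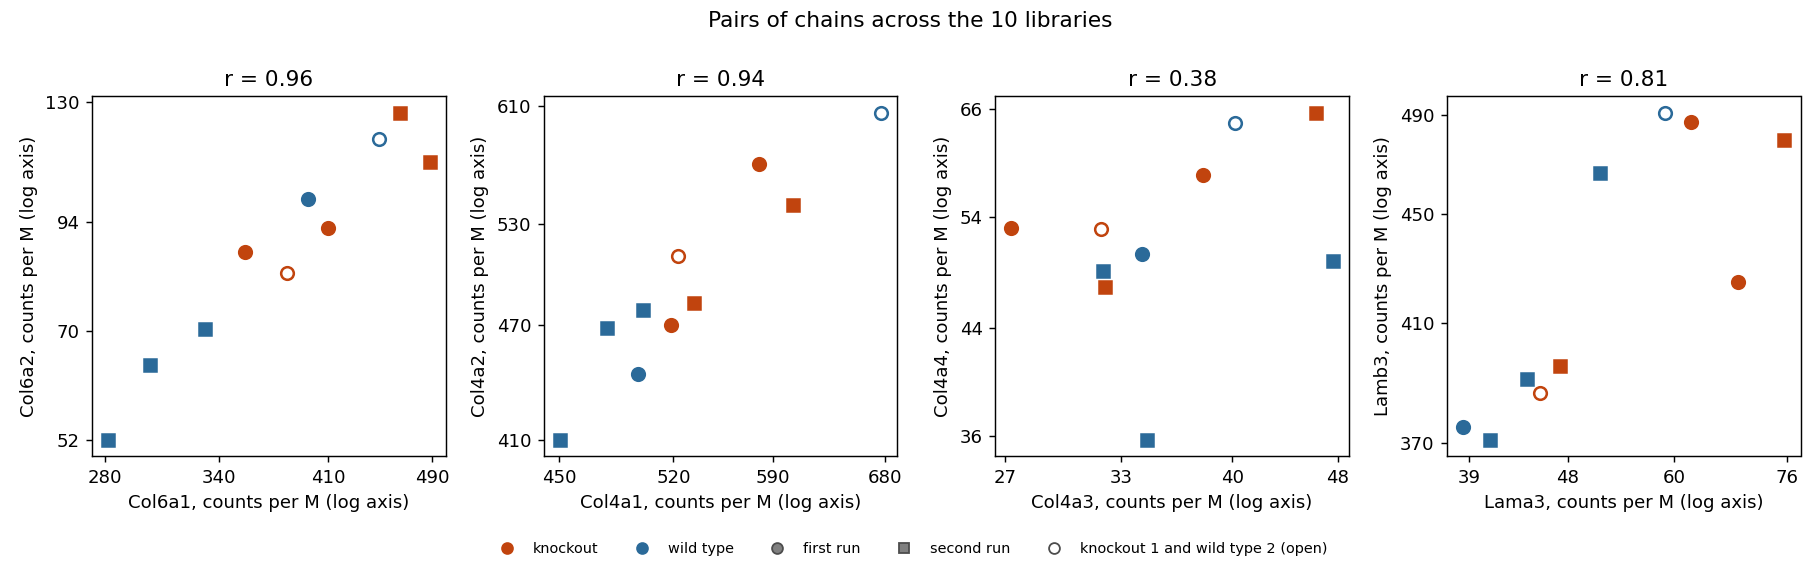
Levels of the partner chains in the 10 libraries, in normalized counts per M on log axes, for Col6a1 and Col6a2, Col4a1 and Col4a2, Col4a3 and Col4a4, and Lama3 and Lamb3 (left to right), with orange for knockout and blue for wild type, circles for the first run, squares for the second and open symbols for the libraries labelled knockout 1 and wild type 2. Points of the first 2 pairs lie close to a line (r of 0.96 and 0.94), those of Lama3 and Lamb3 more loosely (0.81), and those of Col4a3 and Col4a4 are scattered (0.38).

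The genes whose levels followed each pair most closely over the 10 libraries were found among all tested genes. For the sum of Col6a1 and Col6a2 they were Nisch, which encodes nischarin, an integrin-binding protein (r = 0.95), Camk2b, a calcium and calmodulin-dependent kinase subunit (0.94), and Epha1, an ephrin receptor (0.93). Camk2b stood at 9.80, 8.13, 10.52, 28.9 and 24.3 per M in knockout libraries 1 to 5, against 23.5, 9.50, 0.967, 2.23 and 1.72 in wild type libraries 2 to 6. As for Col6a2, knockout 4 and 5 and wild type 2 were the 3 highest libraries and wild type 4 to 6 the 3 lowest. Among the nearest to Col4a1 plus Col4a2 were Dag1, which encodes dystroglycan, a laminin receptor (0.95), and the transporter gene Slc18b1 (0.93). Dag1 stood at 546, 516, 573, 540.0 and 553 per M in knockout libraries 1 to 5, against 629.7, 489, 420.4, 494 and 489 in wild type libraries 2 to 6, highest in the library labelled wild type 2 as Col4a1 was. Near Col4a3 plus Col4a4 were Setd7, a lysine methyltransferase (0.90), and Caskin2 (0.87). Nearest to Lama3 plus Lamb3 were Ckap5, a microtubule polymerase (0.95), Wipf3 (0.95) and Rab20, a small GTPase (0.94). These are the extremes of 12946 genes over 10 libraries and are given as a description.

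**Figure D5:**
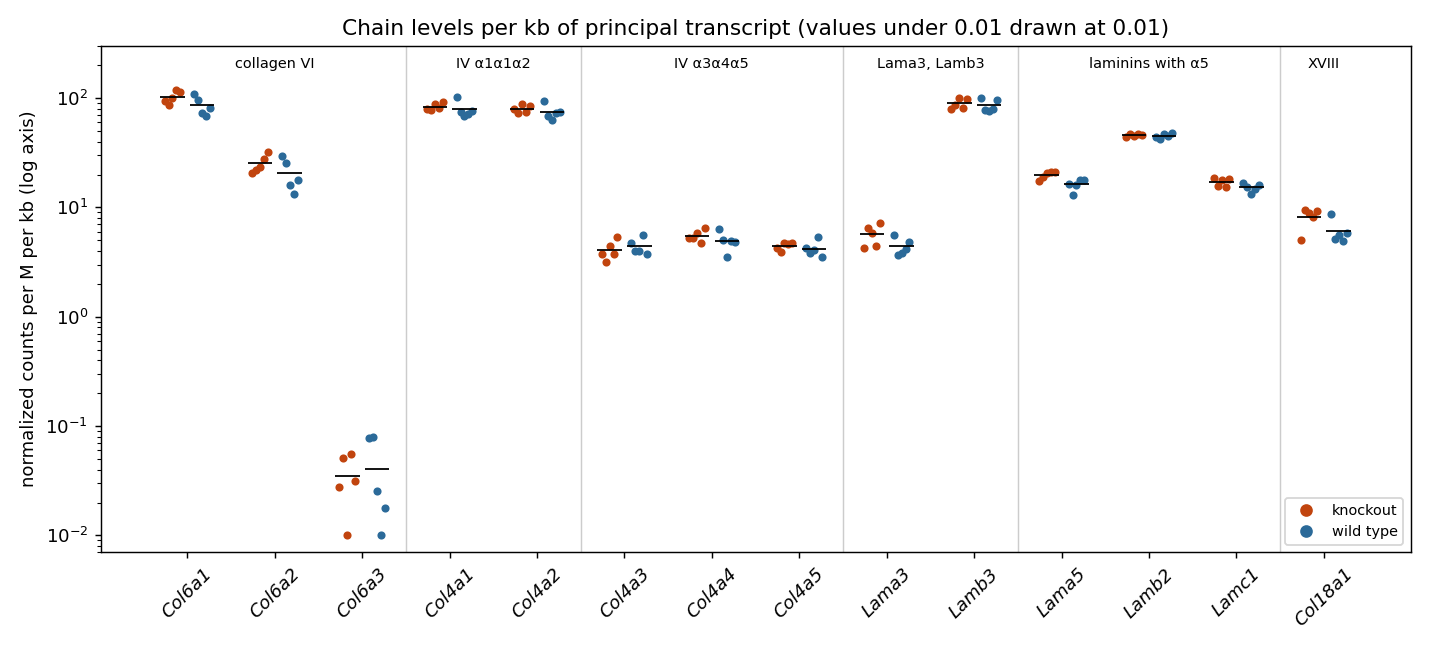
Level of each chain per kb of its principal transcript (vertical log axis, normalized counts per M per kb) in the 5 knockout libraries (orange, left of each pair) and the 5 wild type libraries (blue, right), grouped by protein, with group means as lines. The 4 highest members lie near 100, Col4a3, Col4a4, Col4a5 and Lama3 near 5, and Col6a3 below 0.1.

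Other genes of matrix biology, 128 in 7 lists, were examined for the same contrast. Of these 119 were in the table and 86 were tested, and none passed in the 10 libraries or in the 8 (limma), where 0% and 0.402% of all genes did. An unadjusted p under 0.05 (limma) was found for 10 of the 86 in each. Among all 12946 genes it was found for 1227 in the 10 libraries and 1695 in the 8. The other basement membrane components had a median log2 difference of 0.02 over 18 genes in the 10 libraries and 0.11 in the 8. Their smallest p-values belonged to Sparc, a collagen-binding glycoprotein (-0.30 ± 0.11), Lamc1 and Agrn, the proteoglycan agrin (0.19 ± 0.11, and 0.35 ± 0.08 in the 8 libraries with an adjusted p of 0.0723, limma). Sparc stood at 362, 286, 332, 238 and 302 per M in knockout libraries 1 to 5, against 468, 404, 348, 314 and 337 in wild type libraries 2 to 6. The groups overlapped over all 10 libraries, but within each run every knockout library lay below every wild type library, as for 13% of all genes in the first run and 12.6% in the second. Its log2 difference was -0.42 ± 0.11 in the first run and -0.31 ± 0.11 in the second (limma adjusted p = 0.345 and 0.369), and second minus first run it was -0.33 ± 0.08 (limma adjusted p = 0.0722).

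Interstitial matrix genes had a median log2 difference of -0.23 over 8 genes in the 10 libraries. The fibrillar collagen genes were near the filter on low values, with Col3a1 at 0.475 to 1.93 per M in knockout and 1.57 to 3.68 in wild type libraries, and Col1a1 at 0.274 to 3.22 in knockout and 1.57 to 3.32 in wild type libraries. These genes also count among the fibroblast markers, all 5 tested of which were below 0 (median -0.62). Over the 10 libraries these lower values stood beside higher ones of the members other than Col4a3. In the first run the fibroblast markers were below 0 too (5 of 5, median -0.46), and so were both collagen VI members and all 4 collagen IV members. In the second run these markers were again below 0 (5 of 5, median -0.65), while all 10 members were above 0. The part of fibroblast RNA was not tested. Matrix receptors and hemidesmosome genes had a median of -0.05 over 15 genes, with Dst, a hemidesmosomal linker (0.43 ± 0.14), Itgav, an integrin α chain (0.22 ± 0.07), and Plec, plectin (0.20 ± 0.07), closest to passing. Collagen processing genes had a median of 0.03 over 21 genes, led by the collagen export receptor Mia3 (0.17 ± 0.07), the chaperone Fkbp10 (-0.39 ± 0.20) and the lysyl hydroxylase Plod1 (-0.22 ± 0.12). Matrix remodelling genes had a median of -0.13 over 10 genes, led by the protease Htra1 (-0.20 ± 0.12), the inhibitor Timp3 (-0.18 ± 0.11) and the membrane protease Mmp14 (-0.17 ± 0.11). In the TGF-beta pathway, a regulator of matrix genes in many cells, the median was 0.02 over 12 genes, with Ccn2 at -0.53 ± 0.23, Smad3 at 0.19 ± 0.09 and Smad7 at 0.18 ± 0.10.

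Between the runs, 3 of the 86 tested genes of these lists passed, against 0.626% of all genes. Bmp1, the protease that trims procollagens, rose in the second run by 0.37 ± 0.08 on the log2 scale (limma adjusted p = 0.0375). Fn1, fibronectin, had a log2 difference, second minus first run, of -1.26 ± 0.26 (limma adjusted p = 0.0305), with 0.930 to 2.98 per M in the second run and 2.96 to 6.21 in the first. Pcolce, an enhancer of the same protease, had -0.66 ± 0.13 (limma adjusted p = 0.0288). Markers of other cell types also differed between the runs. Of the 4 tested macrophage and monocyte markers, Chil3 and Mrc1 were called lower in the second run (median of the 4 -1.22), and 4 of 5 ciliated cell markers were called higher (median 0.61). Their part in the 3 genes' values was not tested. The 3 calls were fragile. All 3 were lost without wild type 2 (adjusted p = 0.147, 0.149 and 0.142), without wild type 3, 5 or 6, without knockout 4, with sex as a covariate and without the filter, while their directions held in every alternative run. Without both doubted libraries the adjusted p was 0.189, 0.0851 and 0.0952. Bmp1 was also lost without wild type 4, Fn1 without knockout 2 or 3 and Pcolce without knockout 2.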

How the data were processed

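Messenger RNA of sorted AT2 cells was measured in 10 libraries, made from polyA RNA with NEBNext Ultra and run on a NextSeq 500, per the labels' protocols. The tools named in the submitters' processing notes are bcl2fastq 2.17 and edgeR 3.14.0, with build mm10, and their roles are not given there. No source used here gives the aligner, annotation, strand setting or normalization. The deposited table of the authors holds normalized counts, a signal that is not whole, for 16154 genes, with column totals of 6.94 to 7.43 M. As the values are not counts, no count test was run.

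Each value was scaled by 1 constant, the mean column total of 7.14 M. The 12946 genes that reached 1 per M in 5 or more libraries were tested with limma-trend (limma 3.58.1, R 4.3.3) on log2(value per M + 0.5), two-sided, with Benjamini-Hochberg adjustment over all tested genes and a threshold of 0.05. Log2 differences and standard errors are on that scale, which understates changes of low genes. Correlations used 100000 permutations (scipy 1.17.1, numpy 2.4.6, pandas 2.3.3, Python 3.11.15, matplotlib 3.10.9). The fit was tested on simulated data. Coordinates and lengths come from GENCODE release M21 (mm10), promoter windows from RefSeq (GRCm38.p6).

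The 10 genes, the lists and the tests were chosen with earlier results of these data known. The text names the 10 genes, Rbck1, the partner chains Col6a3, Col4a5, Lamc1 and Lamb2, from each list the 3 tested genes with the smallest p in the 10 libraries plus any that passed, and the 3 genes nearest to each of 4 sums by Pearson's r. Bmp1, Fn1, Pcolce, Pcbp3 and Slc19a1 lie outside this rule and were named after their values were seen. A few others under this rule are not used here. Other pseudocounts, filters, scalings, covariates, a replicate block and leaving out each library were tried.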

Additional observations from a re-analysis of the deposited data

Results flagged for a closer look

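The difference of Col6a2 between knockout and wild type was not the same in the 2 runs. The second-run log2 difference minus that of the first was 1.25 ± 0.17 (limma interaction term, adjusted p = 0.0113 over 12946 genes). The 2 genes that passed (0.0154%) were Col6a2 and Camk2b, with 4.35 ± 0.43 (adjusted p = 0.000265), which was also among the genes nearest to collagen VI. Leaving out wild type 2 or knockout 5 ended the call of Col6a2 (adjusted p = 0.151 and 0.238) but not that of Camk2b. Without the libraries labelled knockout 1 and wild type 2, 24 genes passed, and the value for Col6a2 was 1.09 ± 0.20 (adjusted p = 0.0316). With all 10 libraries, the value for Col6a1 was 0.78 ± 0.14 (limma interaction term, adjusted p = 0.0643). For the other members it then ran from -0.08 for Lama5 to 0.51 for Col18a1 (limma interaction term, adjusted p from 0.819 to 0.987). In the 8 libraries it was 0.69 for Col6a1, and ran from -0.35 for Lama3 to 0.19 for Col4a4 among the others. Col6a2 was chosen with its knockout difference in view, so its p is no independent test. The first run holds 3 female libraries and both libraries whose Rbck1 goes against the label, and the part of these in the difference was not tested beyond the values given.

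Single libraries stood apart from the other 4 of their group by Dixon's test in 7 of 94 groups of 5 examined (47 genes). Chance flags about 1 in 20 groups. Among the 10 genes, Col18a1 was lowest in knockout 1 at 24.0 per M (others 39.0 to 45.1) and highest in wild type 2 at 42.1 (others 23.7 to 27.8). Col4a1 was highest in wild type 2 at 677 (others 450.3 to 501). Rbck1 was lowest in wild type 2 at 29.7 (others 56.1 to 57.8). Agrn was highest in wild type 2 at 112 (others 73.3 to 78.6), and so was Htra1 at 52.1 (others 32.7 to 35.3). Mia3 was highest in wild type 6 at 45.5 (others 39.0 to 40.1). The library labelled wild type 2 accounts for 5 of the 7, and the cause was not tested.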

How the results depend on the processing

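The log2 differences of the 10 genes moved by less than 1 SD between replicates under every alternative run (20 for the 10 libraries, 18 for the 8), and kept their sign except Col4a3 in the 8 libraries, which changed sign in 4. The calls of the 4 pair correlations held under every alternative but 1. In that one, deviations from the means of run and genotype, chosen after seeing the data, r was 0.71 for Col6a1 and Col6a2 and 0.87 for Lama3 and Lamb3, and neither passed (exact permutation test, adjusted p = 0.13 and 0.0833). Counts of genes called were less stable, and the cause was not tested. With all 10 libraries the count of 0 became 1 with the run as a covariate and 0 to 4 when 1 library was left out (4 without knockout 1). In the 8 libraries the count of 52 became 10 without the filter, 27 with sex as a covariate and 19 to 100 when 1 library was left out (19 without wild type 5, 26 without wild type 4, 32 without knockout 3, 84 without knockout 4, 100 without wild type 6). Among the members, Col18a1 was called in all of these fits to the 8 libraries, joined by Lama5 with the run as a covariate, by Lama3 without wild type 6 or knockout 4, and by Col6a1 and Col6a2 without wild type 3. Between the runs the count of 81 became 51 with a filter at 5 per M, 28 without both doubted libraries, 44 with sex as a covariate and 18 to 139 when 1 library was left out. When 1 library was left out the count was 0 to 9 in the first run, 8 to 105 in the second and 1 to 18 for the interaction, which gave 24 without both doubted libraries. These leave-one-out fits within runs and the last 2 settings between runs were chosen after seeing the data.

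Shared replicate numbers do not pair the mice. The correlation of deviations was 0.3136, 0.02652, 0.0986 and 0.07921 for numbers 2, 3, 4 and 5, and 1 of 4 matched its own number best. With the replicate block 261 genes were called in the 10 libraries and 397 in the 8, with 1 gene of the matrix lists in each (Sparc and Agrn), and of the 10 genes Col18a1, Lama3 and Lama5 in the 10 libraries and these with Col6a1 in the 8. The read depth is not stated in the table, so how far it limits the low genes, Col6a3 and the fibrillar collagens among them, could not be computed.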

Other observations

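Col6a2, Col6a1 and Col18a1 lie within 570.787 kb of chromosome 10, and their neighbours were looked at after the members' values had been seen. Of the 20 other tested genes within that stretch or 500 kb to either side, 11 had a log2 difference, knockout minus wild type, above 0 in the 8 libraries, with a range of -0.31 to 0.32. In the second run 9 of 20 were above 0, with a range of -0.74 to 0.47. Pcbp3, the gene between Col6a1 and Slc19a1, stood at 0.06 in the 8 libraries and -0.28 in the second run. All 3 collagen genes were above the range of these neighbours in both sets. Unlike the neighbours, the collagen genes were chosen with these differences in view, so nothing is read from their place above that range. In the first run all 3 lay within the neighbours' range of -0.47 to 0.43. They stood there at -0.32 for Col6a2, -0.14 for Col6a1 and 0.15 for Col18a1. Over all 10 libraries Col6a1, at 0.27, was just above the highest neighbour, at 0.26.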
